A study of Homo sapiens with 6 samples.

Results

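The 10 glycolysis genes described here are SLC2A1, HK2, PFKP, ALDOA, TPI1, GAPDH, PGK1, ENO1, PKM and LDHA, taken as a named list and ordered by their step in the pathway. They are 10 of the 63241 genes listed for these libraries, and all 10 had enough counts to be tested. The cells were HT-1376, a human bladder carcinoma line. They were transfected with an siRNA against SHMT2, the mitochondrial serine hydroxymethyltransferase (siSHMT2, labelled SHMT2 knockdown), or with a non-targeting siRNA (siNC, labelled WT), and were collected after 24 h. Each group had 3 RNA-seq libraries of captured mRNA, and 1 siRNA sequence against SHMT2 was used for all of siSHMT2. The study calls the libraries of a group biological replicates, and the labels do not say whether they came from separate cultures, so the p-values measure the spread between these libraries, which may be technical in part.

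Glycolysis splits glucose into pyruvate in the cytosol and yields ATP and NADH. Glucose enters through a membrane transporter, is phosphorylated and cleaved into triose phosphates, and these are oxidized and turned into pyruvate, which lactate dehydrogenase can reduce to lactate. Tumor cells often keep this flux high in the presence of oxygen, and the serine pathway in which SHMT2 works branches from an intermediate of lower glycolysis. GAPDH is also the usual reference gene of RT-qPCR, and it was the reference of the RT-qPCR experiments of this study, so its steadiness between the groups bears on every value read against it.

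The deposited counts were few, a small part of the reads that the study describes as sequenced. The total count was 817748, 660559 and 890574 in the siNC libraries and 533689, 818859 and 815061 in the siSHMT2 libraries. A tested gene had a median of 25 counts per library, and the 10 glycolysis genes together had 1841 to 3272. The epithelial character of the cells was present in the counts: KRT8, a simple epithelial keratin, had an FPKM (counts scaled by the length of the gene and the total of the library) of 1056 ± 64.0 in siNC against 1063 ± 16.9 in siSHMT2 (SD, n = 3 each), and 12 of 14 epithelial and urothelial markers were tested. Exons of KRT18, on the opposite strand, lie under 7.63% of the exonic bases of KRT8. KRT18 had 5544 counts against 13773, and its part in the KRT8 value was not tested. Of 3 uroplakins, the membrane proteins of differentiated urothelium, UPK1B had 891 counts in all libraries together, UPK2 had 1 and UPK3A had 0. GATA3, a transcription factor of luminal urothelium, was the 1 of the 12 tested markers with an unadjusted p under 0.05, beside 3.84% of all tested genes (log2 fold change 0.54, standard error 0.229, unadjusted p 0.0225 and adjusted p 0.999 by edgeR). The markers of fibroblasts summed to 7 to 24 counts per library, those of immune cells to 0 to 2 and those of endothelial cells to 0 to 4.

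The strand of the counted reads limits what every value below stands for. The library kit keeps the strand of the RNA, and the strand setting of the counting is not given in the sources used here. ENSG00000269968, a lncRNA gene of chromosome 12 (GRCh38, 6537794 to 6538370, minus strand), has a listed length of 422 bases, and all of them lie under exons of GAPDH, which is on the plus strand. This lncRNA gene had 7896 counts over the 6 libraries against 4491 for GAPDH, and its FPKM, 3809 to 4717, was 6.22 to 8.28 times that of GAPDH in the same library. At MALAT1, an abundant nuclear lncRNA that was looked at after these values were seen, the FPKM was 33.2 to 52.7, and that of TALAM1, annotated on its opposite strand, was 3513 to 4555. Reads of a gene and reads of its opposite strand cannot be told apart in these counts, and whether the values of the 10 genes come from the one or the other was not tested.

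The targeted gene was the first check of the labels. SHMT2 had 28, 15 and 20 counts in the siNC libraries and 9, 2 and 5 counts in the siSHMT2 libraries, and the FPKM was 7.75 ± 1.97 against 2.48 ± 2.19 (SD, n = 3 each). All 3 siSHMT2 libraries lay below all 3 siNC libraries. The log2 fold change (log2FC) of siSHMT2 against siNC was -1.78 (standard error, SE, 0.478). In edgeR, with the quasi-likelihood test over 7207 tested genes, its unadjusted p was 0.000558 and its p adjusted by Benjamini and Hochberg was 0.932. SHMT2 was in place 4 of all tested genes by p, and 0 genes, the targeted one included, passed the adjusted threshold of 0.05. At an unadjusted p under 0.05 there were 277 genes (3.84% of those tested) by edgeR, 140 higher and 137 lower in siSHMT2, and 117 genes by DESeq2. In these bulk libraries, fewer cells that express a gene and less of its RNA per cell cannot be told apart.

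None of the 10 glycolysis genes passed the adjusted threshold in edgeR, and their smallest adjusted p was 0.999. At the unadjusted p under 0.05, 0 genes were higher and 1 gene, PFKP, was lower in siSHMT2, against backgrounds of 1.94% and 1.9% of all tested genes in these directions. The log2FC was above 0 for 2 genes, HK2 and ALDOA, and below 0 for 8. The median over the 10 genes was -0.09, beside -0.0010 over all tested genes, and without siSHMT2 replicate 3 it was -0.037. The values of each gene in each library are shown in the plot of FPKM by pathway step.

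**Figure D1:**
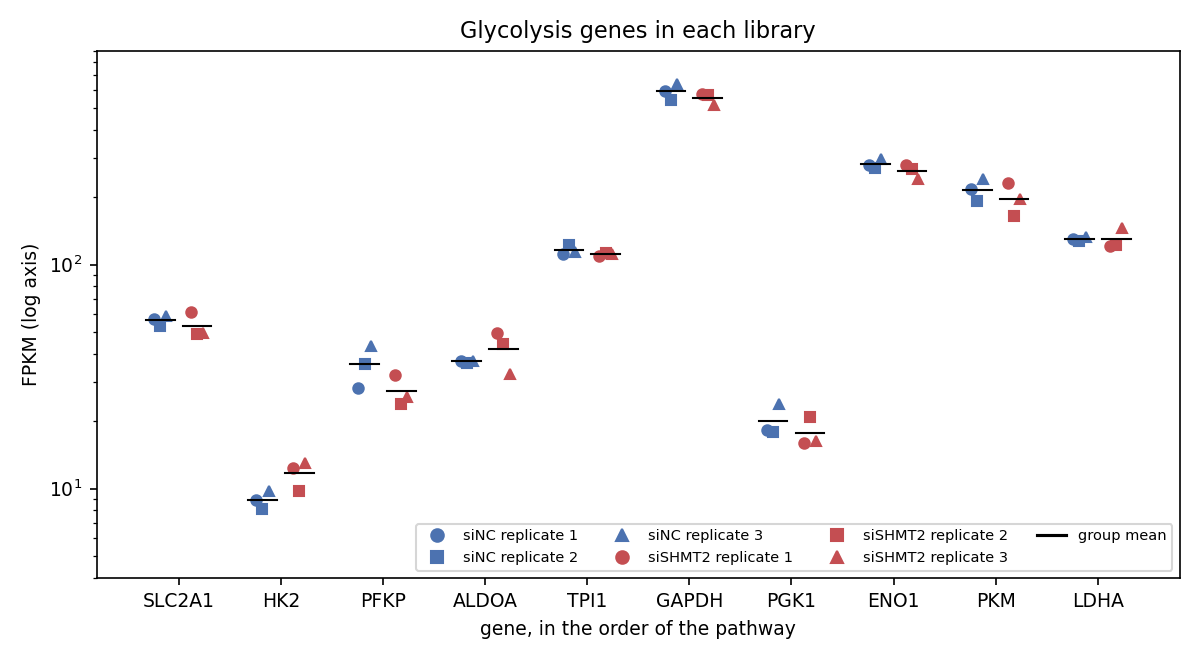
FPKM (log axis) of the 10 glycolysis genes in pathway order. Each point is 1 library (blue siNC, red siSHMT2, marker shape by replicate number) and each bar is the mean of 3 libraries. The genes span from HK2, at 8.07 to 13.1, to GAPDH, at 516 to 638, and the 2 groups overlap for each gene on this scale, for HK2 by the margin between 9.77 and 9.78.

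The levels per length differed far more between genes than between groups. In siNC the order of mean FPKM was GAPDH, ENO1, PKM, LDHA, TPI1, SLC2A1, ALDOA, PFKP, PGK1 and HK2, from 593 down to 8.92. GAPDH was 2.11 times the next gene, ENO1, and PGK1 was 2.24 times HK2. Neighbours in this order did not overlap between their 3 libraries, except ALDOA and PFKP in siNC (means 36.9 and 35.9), and SLC2A1 and ALDOA in siSHMT2 (means 53.3 and 42.1). The steps of the lower, ATP-yielding part of the pathway were not uniform: PGK1, which follows GAPDH, had a mean FPKM of 20.01 ± 3.29 (SD, n = 3) in siNC, below TPI1, GAPDH and ENO1. GAPDH held place 66 of all listed genes by mean FPKM in siNC.

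Entry and trapping of glucose came first. SLC2A1 encodes GLUT1, the basal glucose transporter, and had an FPKM of 57.5, 53.2 and 58.7 in siNC and of 61.5, 49.1 and 49.3 in siSHMT2. The highest and both lowest libraries were siSHMT2 libraries, so the groups overlapped, and the log2FC was -0.10 (SE 0.150). HK2, the inducible hexokinase of many tumors, had 41, 30 and 49 counts in siNC and 37, 45 and 60 in siSHMT2. Its FPKM was 8.91, 8.07 and 9.78 in siNC and 12.3, 9.77 and 13.1 in siSHMT2. The siSHMT2 libraries were higher but for 1 value, since the lowest of them, 9.77, lay just under the highest siNC library, 9.78. On the log2 CPM scale after TMM normalization (counts scaled to the library total, with a prior count of 2), HK2 was 5.75, 5.71 and 5.87 in siNC and 6.22, 5.94 and 6.28 in siSHMT2, and there the groups did not overlap. HK2 was the 1 gene of the 10 with groups apart on this scale, beside 9.2% of all tested genes (4.65% higher and 4.55% lower in siSHMT2). It was also the gene of the list with the highest log2FC, 0.39 (SE 0.232), with an unadjusted p of 0.104 and an adjusted p of 0.999 by edgeR, and the exact permutation test on FPKM gave p = 0.2, where 3 against 3 libraries cannot go below 0.1.

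PFKP encodes the platelet form of phosphofructokinase, the committed step of glycolysis. Its FPKM was 28.1, 36.2 and 43.3 in siNC and 32.1, 23.9 and 25.5 in siSHMT2. The value of siNC replicate 1 was within the siSHMT2 range, while the other 2 siNC libraries were above all siSHMT2 libraries. The log2FC was -0.42 (SE 0.192) with an unadjusted p of 0.0355, place 180 of 7207, and the adjusted p in edgeR was 0.999. The unadjusted p was 0.00813 without siNC replicate 1, 0.232 without siNC replicate 3 and 0.0844 by DESeq2, and the log2FC lay between -0.58 and -0.27 over all alternatives.

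The next enzymes cleave and interconvert the sugar phosphates. ALDOA, the aldolase of muscle and most proliferating cells, had an FPKM of 37.2, 36.4 and 37.2 in siNC and of 49.5, 44.3 and 32.4 in siSHMT2. The 3 siNC libraries lay within 1 FPKM of each other, and the siSHMT2 libraries fell on both sides of them, with a log2FC of 0.18 (SE 0.190). TPI1, triose phosphate isomerase, had an FPKM of 112, 122 and 113 in siNC and of 109, 112 and 111 in siSHMT2. Its groups overlapped, its log2FC was -0.05 (SE 0.145), and its coefficient of variation of FPKM over the 6 libraries, 3.88%, was the lowest of the 10 genes.

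GAPDH (ENSG00000111640, GRCh38 chromosome 12, 6534512 to 6538374, plus strand) encodes glyceraldehyde-3-phosphate dehydrogenase, the step that makes NADH. It had 838, 618 and 978 counts in siNC and 532, 802 and 723 in siSHMT2. The FPKM was 596, 544 and 638 in siNC and 579.6, 569 and 516 in siSHMT2. The highest library was siNC replicate 3 and the lowest siSHMT2 replicate 3, and the other 4 libraries were interleaved. Means were 593 ± 47.3 for siNC against 555 ± 34.3 for siSHMT2 (SD, n = 3 each), and the exact permutation test gave p = 0.4. The log2FC was -0.09 (SE 0.105), and 1.96 standard errors on both sides gave a fold of 0.813 to 1.08, while without siSHMT2 replicate 3 the log2FC was -0.031. The unadjusted p was 0.378 and the adjusted p 0.999 by edgeR.

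The RT-qPCR primers of GAPDH show which part of the gene the reference assay reads. They are printed 5′ to 3′ from the primer list of the study, and the capitals mark the bases of the forward primer that lie on the second of the 2 exons it spans.
GAPDH-F: ggtcggagtcaacggATTTG
GAPDH-R: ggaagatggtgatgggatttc
The forward primer has 20 bases and crosses the junction of exons 2 and 3, from 6534847 to 6536498 on chromosome 12, with its last 5 bases on exon 3. The reverse primer has 21 bases and lies in exon 4, from 6536766 to 6536786. Both are in coding sequence, and they enclose 218 bases of the transcript and 1940 bases of the genome. The forward primer matched 7 of 11 annotated GAPDH transcripts and the reverse primer 10 of 11. GAPDH has many processed pseudogenes, and of the 65 listed ones 1 matched the forward primer exactly, 10 the reverse primer and 0 both, while 6 matched both with up to 2 mismatches in each. In the counts these 65 pseudogenes summed to 51, which is 1.14% of the GAPDH counts, and 10 of them had a count. Neither primer lies under ENSG00000269968, which lies downstream of both.

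Lower glycolysis ended the series. PGK1, phosphoglycerate kinase, had an FPKM of 18.3, 17.9 and 23.8 in siNC and of 16.0, 20.8 and 16.3 in siSHMT2. Its log2FC was -0.17 (SE 0.195) and the groups overlapped. ENO1, the main enolase outside muscle and nerve, had an FPKM of 278, 269 and 294 in siNC and of 278, 268 and 241 in siSHMT2. As for GAPDH, siNC replicate 3 was the highest and siSHMT2 replicate 3 the lowest library, and the log2FC was -0.10 (SE 0.11). PKM, the pyruvate kinase gene whose M2 splice form prevails in tumors, had an FPKM of 216.5, 192 and 239.8 in siNC and of 230.5, 164 and 195 in siSHMT2. The spread within siSHMT2 was wider than the difference of the means, and the log2FC was -0.14 (SE 0.118). LDHA, the lactate dehydrogenase subunit that favors lactate, had an FPKM of 129.9, 128 and 133 in siNC and of 121, 123 and 145 in siSHMT2. The siSHMT2 libraries lay on both sides of all siNC libraries, and the log2FC was -0.0008 (SE 0.131), with a fold of 0.837 to 1.19 at 1.96 standard errors. LDHAP2, a processed pseudogene of LDHA, had 52 counts, and the 6 LDHA pseudogenes together reached 4.14% of the LDHA counts, so part of the reads of this gene is uncertain.

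**Figure D2:**
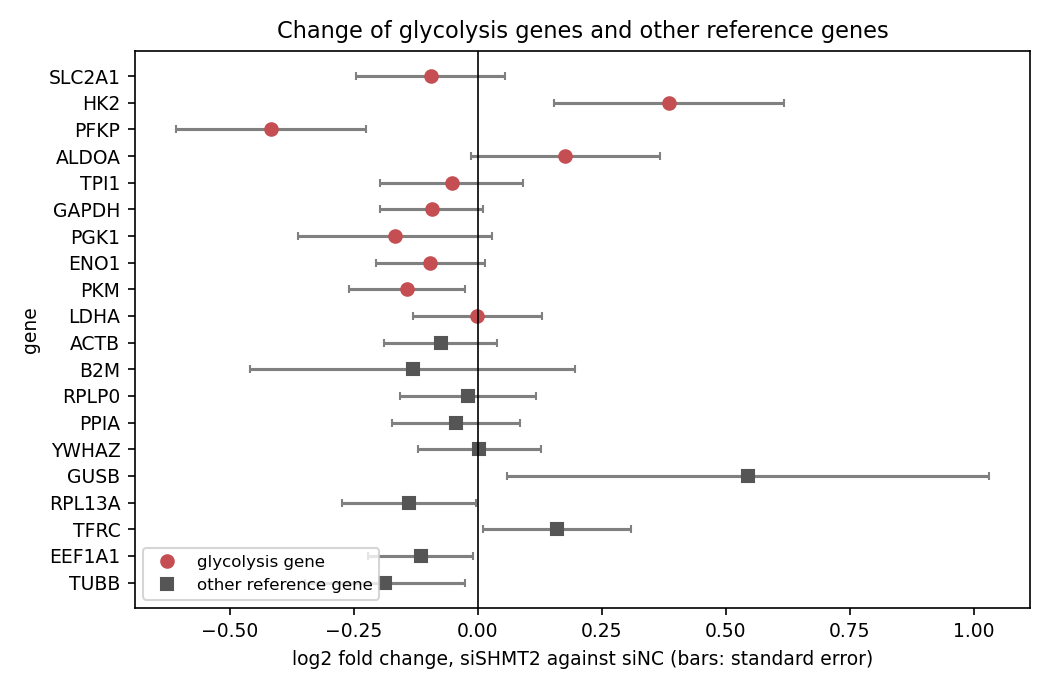
Log2FC of siSHMT2 against siNC for the 10 glycolysis genes (red circles) and for other tested reference genes of RT-qPCR (grey squares), with bars of 1 standard error from edgeR. PFKP, at -0.42, and HK2, at 0.39, stand farthest from 0 among the glycolysis genes, and GUSB, at 0.54, has the widest bar.

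The genes together took a small and similar part of each library. The 10 genes held 0.339%, 0.322% and 0.367% of the counts in siNC and 0.345%, 0.314% and 0.310% in siSHMT2. The means were 0.343% ± 0.0228 and 0.323% ± 0.0192 (SD, n = 3 each), and the groups overlapped (exact permutation test, two-sided, p = 0.3). Within the 10 genes GAPDH alone held 30.2%, 29.0% and 29.9% of the counts in siNC and 28.9%, 31.2% and 28.7% in siSHMT2. This share of GAPDH differed by 0.138 percentage points between the group means, which is less than its spread within either group (exact permutation test, p = 0.8).

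The steadiness of GAPDH was measured as the SD of log2 CPM over the 6 libraries. It was 0.0961 for GAPDH, place 3 of the 10 genes from the lowest, after LDHA with 0.0824 and TPI1 with 0.0914, and just below ENO1 with 0.0988. PFKP had the largest SD, 0.315, followed by HK2 with 0.240 and ALDOA with 0.227. Counting sets a floor that depends on the number of reads, and for GAPDH the SD from counting alone was 0.0537, so its SD was 1.79 times that floor. For LDHA and TPI1 the SD was 0.834 and 0.765 times theirs, and for PKM 2.57 times, the highest ratio of the 10. By this ratio GAPDH was in place 8 from the lowest, and by the SD within groups, 0.0913, in place 1. The place by SD over all libraries ran from 1, without siNC replicate 3, to 4, on log2 FPKM, with library totals only, and without siNC replicate 2 or siSHMT2 replicate 1. Much of the SD of GAPDH came with 1 library: without siSHMT2 replicate 3 it was 0.0461, below the counting floor of the 6 libraries.

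**Figure D3:**
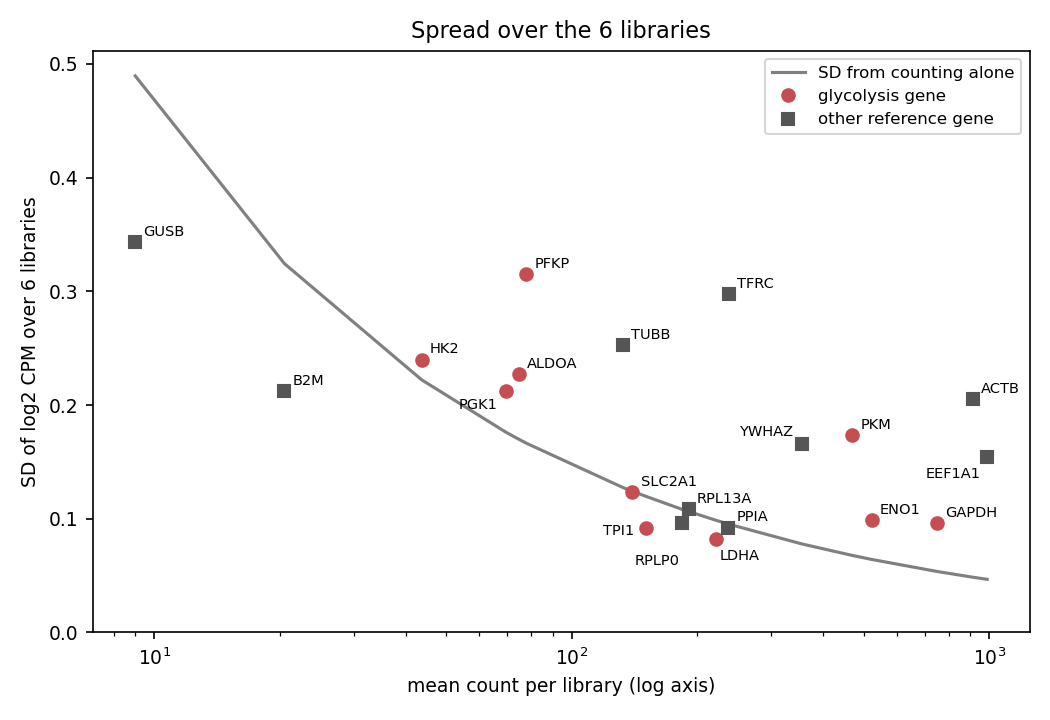
SD of log2 CPM over the 6 libraries against the mean count per library (log axis), for the glycolysis genes (red circles) and other tested reference genes (grey squares), with the SD that counting alone gives as a line. GAPDH, at 0.0961, lies above the line, and LDHA and TPI1 lie below it with fewer counts.

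Other reference genes gave the scale for this. Of 17 usual RT-qPCR reference genes 13 were tested, and among them GAPDH had place 2 of 13 by SD after PPIA, a cyclophilin, with 0.0923. RPLP0, a ribosomal stalk protein, had 0.0964, and RPL13A, a ribosomal protein gene, had 0.108. The cytoskeletal genes ACTB and TUBB had 0.205 and 0.253, and TFRC, the transferrin receptor, had 0.297. By the SD within groups GAPDH had place 3 of the 13, and by the ratio of its SD to the counting floor place 8. By the mean SD of its log2 ratio to each other reference gene, a measure that does not depend on the scaling of the libraries, GAPDH had place 1 with 0.195, and within the 10 glycolysis genes it had place 2 with 0.173, just after ENO1. Beside the 227 tested genes whose mean count was within 2-fold of that of GAPDH, its SD was at percentile 22.9, where their median SD was 0.122. HPRT1, TBP and SDHA had 22 to 58 counts in all and were not tested.

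Most reference genes had a log2FC below 0, as GAPDH did, and none of these differences passed a threshold. Of the 13 tested, GAPDH and PGK1 included, 10 had a log2FC below 0 and 3 above 0, with a median of -0.09, and none had an unadjusted p under 0.05. Without GAPDH and PGK1, 8 of 11 were below 0, beside 3619 of all 7207 tested genes. GUSB, a lysosomal glucuronidase with 54 counts in all, was higher in all 3 siSHMT2 libraries than in any siNC library (log2FC 0.54, SE 0.486). In log2 CPM this held for 4.65% of all tested genes. Scaled to the sum of the reference genes other than GAPDH and PGK1, the log2FC of GAPDH was -0.016. Genes enter this sum by their counts, so EEF1A1, with 5934 over the 6 libraries, and ACTB, with 5473, weigh most, before YWHAZ with 2133. Their log2FCs were -0.115, -0.075 and 0.003, and their SDs were 3.31, 4.22 and 2.13 times the counting floor. Scaling to this sum moved the median of all tested genes by 0.083, and scaling each library to its GAPDH count moved it by 0.098.

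Reading each gene against GAPDH in the same library takes the denominator of the RT-qPCR and does not depend on the scaling of the libraries. GAPDH then stands in for that scaling, which moved the median log2FC of all tested genes by 0.098. Whether these counts read the same RNA as the primers was not tested. The clearest case was HK2, with 4.89, 4.85 and 5.01 counts per 100 GAPDH counts in siNC and 6.96, 5.61 and 8.30 in siSHMT2. All siSHMT2 libraries were above all siNC libraries, as for 7.49% of all tested genes read against GAPDH, where 9.77% were apart in either direction. The SD of the log2 ratio was 0.0237 in siNC and 0.283 in siSHMT2, where counting alone gives 0.225. The log2 ratio was 0.48 higher in siSHMT2 (exact permutation test over libraries, p = 0.1, the lowest value open to 3 against 3). With each library scaled to GAPDH the unadjusted p of HK2 in edgeR was 0.0495 and its adjusted p was 0.981, and 319 genes in all had an unadjusted p under 0.05 on that scale. ENO1 followed GAPDH most closely, with 69.1, 73.3 and 68.3 counts per 100 GAPDH counts in siNC and 71.1, 69.7 and 69.3 in siSHMT2. The SD of its log2 ratio over the 6 libraries was 0.0367, below the 0.0822 that counting alone gives.

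Of the other ratios none had groups apart. ALDOA had 9.19, 9.87 and 8.59 counts per 100 GAPDH counts in siNC and 12.6, 11.5 and 9.27 in siSHMT2, a difference of 0.26 in the log2 ratio (exact permutation test, p = 0.2) that was 0.164 without siSHMT2 replicate 1. PFKP had 8.95, 12.6 and 12.9 in siNC and 10.5, 7.98 and 9.41 in siSHMT2, a difference of -0.29 (exact permutation test, p = 0.3) that lay between -0.464, without siNC replicate 1, and -0.188, without siSHMT2 replicate 2. The lowest siNC value of PFKP was below 2 of its 3 siSHMT2 values. The differences of SLC2A1, TPI1, PGK1, PKM and LDHA lay between -0.08 and 0.08, with permutation p-values of 0.6 to 1.0. In all, 9 ratios were compared. SHMT2 had 3.34, 2.43 and 2.05 counts per 100 GAPDH counts in siNC and 1.69, 0.249 and 0.692 in siSHMT2, a log2 difference of -1.94, so the choice of GAPDH as denominator left the order of its groups as it was.

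**Figure D4:**
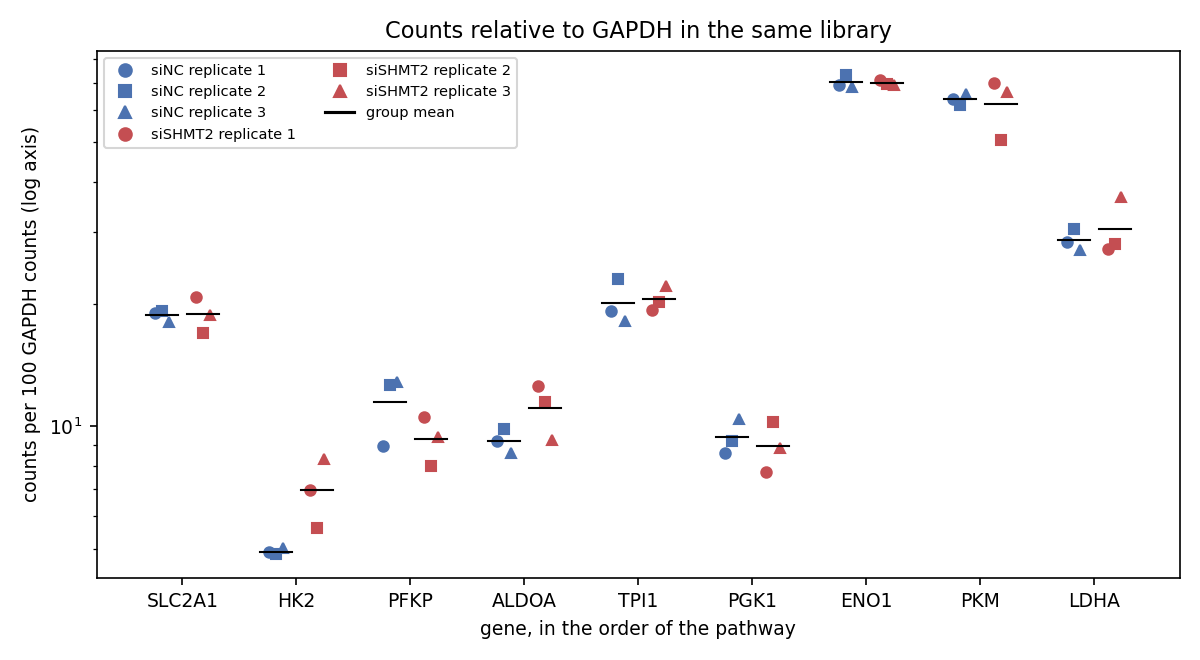
Counts of each glycolysis gene per 100 GAPDH counts in the same library (log axis), with points and bars as in the plot of FPKM. HK2 is the 1 gene with its siSHMT2 points (5.61 to 8.30) above all its siNC points (4.85 to 5.01), and ENO1 stays within 68.3 and 73.3.

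The GAPDH locus gave a further reading through ENSG00000269968, which lies under its exons. It had 1428, 1130 and 1492 counts in siNC against 906, 1630 and 1310 in siSHMT2. The log2FC was 0.05 (SE 0.102), beside -0.09 for GAPDH. The ratio of GAPDH counts to those of the lncRNA gene was 0.587, 0.547 and 0.656 in siNC and 0.587, 0.492 and 0.552 in siSHMT2, and the groups overlapped (exact permutation test, p = 0.5). For the other genes the opposite strand held less: exons of opposite genes covered 7.51% of the exonic bases of SLC2A1, with 138 counts in ENSG00000288955 against 838 in SLC2A1, and 0.519% of those of TPI1, with 24 counts in SPSB2. ALDOA and ENO1 had 13.6% and 2.42% of their exonic bases under opposite genes with at most 20 counts, and HK2, PFKP, PGK1, PKM and LDHA had none.

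The other isoforms and steps of glycolysis were mostly lower in level. Of 16 such genes 7 were tested, 6 with a log2FC below 0 and 1 above 0, with a median of -0.19, and none had an unadjusted p under 0.05. HK1, the constitutive hexokinase, had a mean FPKM of 49.5 ± 12.7 against 43.2 ± 6.04 (SD, siNC then siSHMT2), above HK2 in both groups, with a log2FC of -0.21 (SE 0.160). GPI, the isomerase between the hexokinase and phosphofructokinase steps, was at -0.26 (SE 0.255), and PGAM1, the mutase before enolase, at -0.19 (SE 0.310). The phosphofructokinase forms other than PFKP were at -0.27 for PFKM and 0.13 for PFKL, with standard errors of 0.392 and 0.308. SLC2A3 and LDHB were both at -0.06. The tissue-restricted forms HKDC1, GAPDHS, PGK2 and PGAM2 had 0 counts in all libraries.

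Regulators and exits of the pathway went both ways. Of 18 genes 9 were tested, 5 above 0 and 4 below 0, with a median of 0.02, and none had an unadjusted p under 0.05. SLC16A3, the lactate exporter MCT4, had a mean FPKM of 11.4 ± 1.37 against 14.4 ± 1.11 (SD, siNC then siSHMT2). In log2 CPM it was the 1 of the 9 tested genes with groups apart, beside 9.2% of all tested genes (4.65% higher in siSHMT2). Its log2FC was 0.33 (SE 0.223), with an unadjusted p of 0.149 by edgeR. CSNK1D, whose exons lie opposite part of SLC16A3, had 2256 counts against 282, and its part in this value was not tested. The subunits of pyruvate dehydrogenase, which turns pyruvate into acetyl-CoA, stood at the ends of the list: PDHA1 at 0.68 (SE 0.459) and PDHB at -0.64 (SE 0.418). MAP3K15, whose exons lie opposite 19.3% of the exonic bases of PDHA1, had 511 counts against 67, and its part in the PDHA1 value was not tested.

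The branch and the reverse path were placed beside these. In the pentose phosphate pathway, which takes glucose 6-phosphate for NADPH and ribose, 5 of 7 genes were tested, 2 above and 3 below 0, with a median of -0.06, from TALDO1 at -0.11 to PGD at 0.16. In gluconeogenesis 2 of 6 genes were tested: PC, pyruvate carboxylase, at -0.64 (SE 0.347, unadjusted p 0.0713) and G6PC3, a glucose 6-phosphatase, at 0.07 (SE 0.205). PCK1, FBP1 and FBP2, of the later steps of gluconeogenesis, had 0 counts. Over these 4 lists together 23 of 47 genes were tested, 9 above and 14 below 0, with a median of -0.06 and none with an unadjusted p under 0.05.

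**Figure D5:**
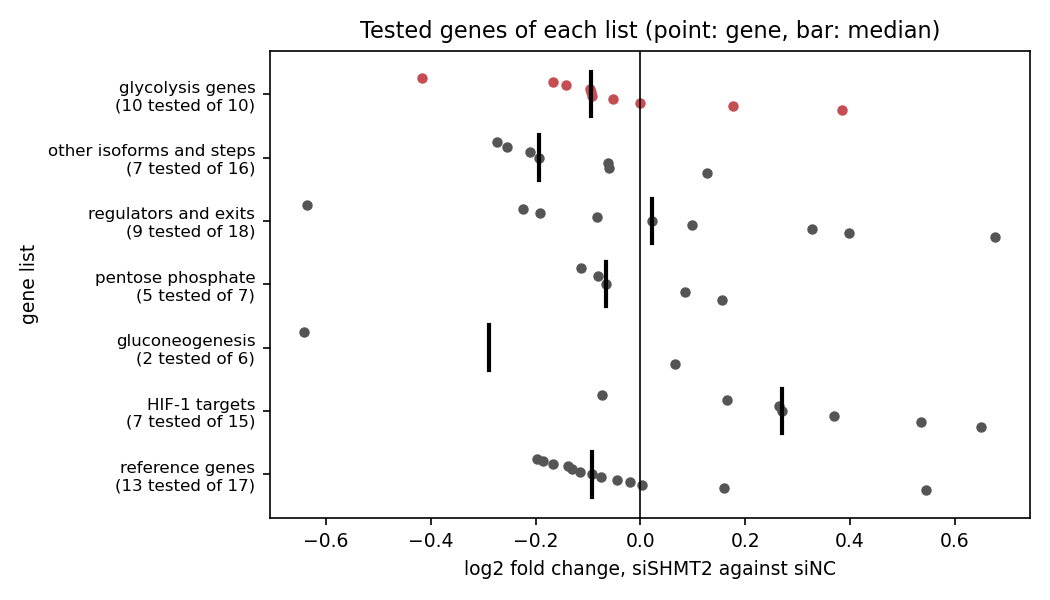
Log2FC of siSHMT2 against siNC for the tested genes of each list (points) with the median of the list (bar). The 10 glycolysis genes (red) have a median of -0.09, the other isoforms and steps -0.19, and the HIF-1 targets outside glycolysis 0.27.

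HIF-1, the hypoxia-inducible transcription factor, drives many glycolysis genes through a core motif, often ACGTG, so its other targets were placed beside them. Of 15 targets outside glycolysis 7 were tested, 6 above 0 and 1 below 0, with a median of 0.27 beside -0.0010 over all tested genes, and none had an unadjusted p under 0.05. KDM3A, a histone demethylase, was at 0.65 (SE 0.487), ADM, adrenomedullin, at 0.54 (SE 0.469), and VEGFA, the angiogenic growth factor with the most counts of the list, at -0.07 (SE 0.190). CA9, a usual marker of hypoxia, had 0 counts in all libraries. The motif near the start of 4 glycolysis genes is shown by 25-base windows of their promoters, from RefSeq on GRCh38.p14, plus strand, with the motif in capitals.
HK2: tgctgcgcccACGTGggagggagcc
ALDOA: cagggaggccACGTGatccgagtcc
PGK1: ggcgtgccggACGTGacaaacggaa
LDHA: cccgactcacACGTGggttcccgca
These windows lie at chr2:74834967-74834991, chr16:30064376-30064400, chrX:78104036-78104060 and chr11:18394467-18394491. All 10 genes had an entry, with 18 promoters of 250 bases before to 50 after a start. ACGTG was found on either strand in 10 of these 18 promoters (55.6%) against 21.4% of all 35116 promoters in the table, which were not matched for base composition. By gene it was found in 7 of 10, against 24.9% of the 27305 genes in the table, with 1.8 promoters per gene for the 10 and 1.29 for all, and 2 of the 3 windows of ALDOA overlap. The longer palindrome CACGTG, which contains the motif, was found in 4 of the 18 promoters (22.2%), each of a different gene, and in 7.26% of all promoters. In the printed windows of HK2, ALDOA and LDHA the motif is part of this palindrome. The letters ACGTG were absent from the windows of SLC2A1, ENO1 and PKM, and other forms of the core motif were not searched. The start used for the GAPDH window lies 747 bases past that of its main transcript. The 7 genes with the motif were HK2, PFKP, ALDOA, TPI1, GAPDH, PGK1 and LDHA, whose log2FCs, given above, ran from -0.42 for PFKP to 0.39 for HK2.

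The shared profile of the 10 genes over the 6 libraries was shallow. Each gene was centred on its own mean log2 CPM, and the mean of the 10 profiles ran from -0.10 in siSHMT2 replicate 3 to 0.09 in siNC replicate 3. ENO1 and GAPDH were closest to it, with root mean square differences of 0.0517 and 0.0564, and HK2 was the farthest with 0.245. Among the 1036 tested genes with at least 100 counts on average, the 5 most like this profile were SSRP1, a histone chaperone subunit, POLG, the mitochondrial DNA polymerase, ZNF225-AS1, an antisense RNA gene, and the ribosomal protein genes RPL3 and RPL8, with differences of 0.0320 to 0.0401. The likeness rests on 6 libraries.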

How the data were processed

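RNA-seq libraries of HT-1376 cells (3 siNC, 3 siSHMT2) were analysed from the tables deposited by the authors. Per the submitters' processing notes, FastQC 0.11.9, fastp 0.23.4, HISAT2 2.2.1 and DESeq2 1.42.1 were used with GRCh38. The counting program, strand setting and annotation release are not given in the sources used here. The deposited counts are raw read counts per Ensembl gene, with 533689 to 890574 per library, a small part of the sequencing depth that the study describes. The FPKM values deposited by the authors equal the counts scaled by gene length and library total, and 91 genes without a length are at 0.

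Symbols, coordinates and overlaps came from GENCODE v44, which held 62666 of the 63241 listed genes. Counts were tested with edgeR 4.0.16 in R 4.3.3 (TMM, filterByExpr, quasi-likelihood test, Benjamini-Hochberg over 7207 genes, threshold 0.05), after the code was tested on simulated data. The biological coefficient of variation was 0.127. Log2 CPM used a prior count of 2. Single values were compared by two-sided exact permutation tests over libraries, computed in Python 3.11.15, with figures by matplotlib 3.10.9. Replicates of a group differed by more than counting noise (chi-square per degree of freedom 1.78 to 2.62), so each counted as 1 sample. The SD from counting alone is the Poisson value at the counts of the gene.

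Alternatives were RLE size factors, library totals, scaling to GAPDH or to 15 listed reference genes, DESeq2 1.42.0, limma 3.58.1 on log2(FPKM + 1) or log2(FPKM + 0.1), no low-count filter or a minimum of 10 counts per library, a prior count of 0.5, the replicate number as a block, and leaving out each library.

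The 10 genes and the gene lists were chosen with earlier results of these data known. Named were SHMT2, the 10 genes, and list members with an unadjusted p under 0.05, at the ends of a list or at the step of one of the 10 genes. Also named were opposite-strand genes and pseudogenes of the 10 genes with over 20 counts, and the 5 genes most like the mean profile. Opposite-strand genes of other list members, among them HDAC5 at G6PC3, SENP1 at PFKM and LRFN4 at PC, were not all described. Other genes named were chosen after their values were seen. Some reference genes that enter the counts and medians of their list are not reported here by name or shown in the plots of single genes.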

Additional observations from a re-analysis of the deposited data

How the results depend on the processing

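No member passed an adjusted p of 0.05 under any alternative, the smallest being 0.843, and 148 of 159 recomputed log2 fold changes of the 10 genes kept their direction. The log2 fold change of HK2 stayed between 0.30 and 0.50, that of PFKP between -0.58 and -0.27 and that of GAPDH between -0.13 and -0.016, while that of SHMT2 lay between -2.58 and -1.31. Genes with an unadjusted p under 0.05 numbered 117 by DESeq2 and 699 with no filter on low counts, where more genes were tested, against 277. Scaled to GAPDH, the median of the 10 genes was 0.0027, SLC2A1 was at 0.0027, TPI1 at 0.042 and LDHA at 0.1002. Scaled to the other reference genes, TPI1 was at 0.026 and LDHA at 0.082. LDHA, near 0 in the main test, was at 0.0048 with RLE size factors and at 0.0046 by DESeq2.

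Leaving out 1 library at a time gave 0 to 1 genes with an adjusted p under 0.05, the 1 gene (adjusted p 0.0462 by edgeR) appearing without siSHMT2 replicate 3, and an SD of log2 CPM of GAPDH of 0.0461 (without siSHMT2 replicate 3) to 0.107. The log2 fold change then ranged from -0.130 (without siSHMT2 replicate 2) to -0.031 (without siSHMT2 replicate 3) for GAPDH, from 0.067 (without siSHMT2 replicate 1) to 0.354 (without siSHMT2 replicate 3) for ALDOA, from -0.326 (without siSHMT2 replicate 2) to -0.040 (without siNC replicate 3) for PGK1, from -0.260 (without siSHMT2 replicate 1) to -0.040 (without siSHMT2 replicate 2) for PKM, from -0.193 (without siSHMT2 replicate 1) to -0.033 (without siSHMT2 replicate 3) for SLC2A1, from -0.132 (without siSHMT2 replicate 1) to -0.026 (without siSHMT2 replicate 3) for ENO1, from -0.090 to 0.024 for TPI1, above 0 without siNC replicate 2, and from -0.078 to 0.044 for LDHA, above 0 without siNC replicate 2, siSHMT2 replicate 1 or siSHMT2 replicate 2. The difference in log2 ratio to GAPDH ranged from -0.024 to 0.027 for ENO1, -0.072 to 0.078 for SLC2A1, -0.033 to 0.135 for TPI1, -0.184 to 0.020 for PGK1, -0.138 to 0.093 for PKM, -0.053 to 0.160 for LDHA, 0.164 (without siSHMT2 replicate 1) to 0.386 (without siSHMT2 replicate 3) for ALDOA and -0.464 (without siNC replicate 1) to -0.188 (without siSHMT2 replicate 2) for PFKP. The cause of these shifts was not tested. The groups of HK2, apart in log2 CPM after TMM, overlapped with library totals only and on FPKM. With at least 10 counts in every library, 2 of the 10 genes had groups apart, beside 8.99% of all genes tested there. With 1 library left out the number was 1 to 4, with 4 without siSHMT2 replicate 1, where 2 against 3 libraries were apart for 19.3% of all genes.

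Deviations of replicates of the same number had correlations of -0.015, 0.048 and -0.012, beside -0.031 to 0.045 for unlike numbers. The chi-square per degree of freedom between siNC replicate 2 and siSHMT2 replicate 2 was 1.68, below that of replicates within a group. The labels do not say whether the numbers pair samples, and a batch shared by libraries of 1 number was not tested. With the replicate number as a block, edgeR gave 304 genes with an unadjusted p under 0.05 and 0 adjusted calls, and GAPDH was at -0.095. The smallest adjusted p in edgeR was 0.0852 with this block and 0.932 without it. The low deposited counts limit all of this: at 2 to 28 counts for SHMT2 and 30 to 60 for HK2, counting alone gives HK2 an SD of 0.222 on the log2 scale.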
